A study of Rattus norvegicus with 16 samples.

Results

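RNA levels in the infarcted wall of rat hearts were compared between hearts that had received an injected hydrogel of either stiffness and hearts left untreated after infarction. The comparison took in 12 of the 16 libraries of the study: 4 from untreated infarcts (MI), 4 from infarcts given a soft hydrogel (MI_soft) and 4 from infarcts given a stiff hydrogel (MI_stiff). All 12 came from rats whose left anterior descending coronary artery, the vessel that feeds the front wall of the left ventricle, had been tied off. The remaining 4 libraries were from Sham rats, which had control surgery without ligation, and they entered the shared estimate of the spread and serve as a reference level. Each difference below is the mean of both gel groups minus MI, on the log2 scale. Strain, age, sex, the polymer of the gels, the injected volume and the time of sampling are not stated in the labels, and the protocol text also names MI/R, which often stands for ischemia followed by reperfusion, so it is not known whether flow was restored. The MI group is not described as having received an injection, so the gel and the injection itself cannot be told apart.

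After a coronary artery is closed, the heart muscle it fed dies and is cleared by macrophages, and fibroblasts replace it with a collagen scar. Hydrogels are water-swollen polymer networks that are injected into the damaged wall to support it mechanically. A polymer left in tissue is itself met by macrophages, which can load up with lysosomes, the acid compartments that break material down, and can fuse into giant cells around what they cannot take up.

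The libraries held 10940685 to 14456186 counts each. Deposited TPM, which is scaled for transcript length, identified heart tissue with scar. Tnnt2, cardiac troponin T, lay at 3240 to 6490 TPM in MI, 3510 to 5010 in MI_soft and 1700 to 4110 in MI_stiff, and Col3a1, a scar collagen, at 1200 to 2830, 1150 to 1790 and 1170 to 2150 TPM. Epcam, an epithelial marker, did not exceed 0.31 TPM. The MI libraries were not alike. Genes with at least 1 count numbered 10470, 10958 and 11283 in MI 2, MI 3 and MI 4 but 12820 in MI 1, against 11785 to 12819 in the gel libraries. The group means were 11383 ± 1015 (SD, n = 4) and 12391 ± 382.1 (SD, n = 8), with exact permutation p = 0.0283 (two-sided, 495 splits) and 0.0849 after adjustment over 3 library measures. MI 1 also correlated better with the MI_soft libraries (mean r = 0.9412 across genes, which are not independent replicates) than with the other MI libraries (0.8828). MI 2, MI 3, MI 4 and the gel library with the fewest genes, MI_soft 4, are called low-detection libraries here. Their part in the differences was not tested beyond leaving them out, which leaves MI 1 as the single untreated infarct. Whether the library labelled MI 1 carries the right label was not tested, and both that fit and every MI mean with all 4 libraries take the label as given.

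Of 11376 genes tested, 70 (0.615%) differed between the gels and MI at an adjusted p under 0.05 in edgeR's quasi-likelihood test. Of these, 27 (0.237%) were higher and 43 (0.378%) lower with the gels. Leaving aside 3 genes with at most 1 count over the MI libraries, whose fitted sizes are no measure of their change, sizes ran from 0.71 to 5.24 on the log2 scale, and the median over all tested genes was 0.01. Some of the 70 share their reads: 7 had counts identical to another of the called genes in every library, which left 66 distinct profiles. The 8 gel libraries all lay above the 4 MI libraries for 86 of the tested genes (0.756%) and all below for 54 (0.475%), and among the called genes this held for 19 and 13. DESeq2 called 497 genes, all 70 among them, and reversed the majority, with 56.1% of its calls higher against 38.6% in the edgeR fit. For reading the gene lists below, DESeq2 thus called 4.37% of all tested genes, and at an unadjusted p under 0.05 in edgeR 16.6% of all tested genes differed, 7.86% higher and 8.76% lower. The words passed, called, rose and fell refer to edgeR's adjusted p unless another tool is named.

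How many genes were called depended on single libraries and on whether the Sham libraries were in the fit. Fitted on the 12 compared libraries without any Sham library, 2 genes were called, both lower and both among the 70. Without MI 1, 1663 genes were called, 1017 higher and 646 lower, with 68 of the 70 among them. Without MI 2, MI 4, MI_soft 1 or MI_stiff 3 the count was 1 or 2. All 70 kept their sign in each of the 16 fits that left out a single library, and Mmrn1 alone stayed called in every one. The 70 were chosen from these same libraries, nearly all of which each such fit reuses. Their kept sign is therefore no independent check. Without the low-detection libraries 55 genes were called, 6 of the 70 among them. In that fit 66 of the 70 kept their sign, 40 were over 1.5 times smaller, and the median size was 0.613 of that with all libraries. In the results below, "without MI 1" and "without the low-detection libraries" refer to these fits. The labels do not say whether each of the 4 libraries was made from its own rat. Every p-value therefore reflects only how these libraries vary, which may be partly technical.

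Among the genes that rose were several known from macrophages, although of the fixed lists only 1 of 28 macrophage markers, 1 of 25 lysosome and lipid-laden macrophage genes and 1 of 11 fusion genes passed. Gpnmb, a membrane glycoprotein of macrophages filled with lysosomes, rose 5.60-fold, and Mmp12, the elastase that macrophages secrete, rose 37.9-fold. These are pooled values. Against MI, neither gene passed with the soft gel alone (adjusted p = 0.120 and 0.0914), and both did with the stiff gel (0.0068 and 0.0096). Also higher were Dcstamp, which macrophages need in order to fuse into giant cells and osteoclasts, Hk3, the hexokinase of myeloid cells, Lilrb4, an inhibitory receptor of myeloid cells, and Il1rn, the antagonist of the interleukin-1 receptor. In bulk tissue, more cells of a type and more RNA per cell cannot be told apart, here and in every group of genes below.

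Gpnmb was at 198, 61.5, 87.5 and 65.5 CPM (a gene's count relative to the total of its library, after TMM scaling) in MI 1 to MI 4, at 258, 514, 234 and 342 in MI_soft 1 to 4 and at 1020, 273, 1340 and 1340 in MI_stiff 1 to 4. Every gel library exceeded every MI library, and MI 1 was the highest of its group. The difference was 2.49 ± 0.42 (SE) with adjusted p = 0.0252. It was 3.02 without MI 1, and 1.54 with adjusted p = 0.451 without the low-detection libraries. Sham libraries lay at 6.66 to 10.9 CPM, so the gene was already high in untreated infarct.

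Mmp12 stood at 19.8, 1.59, 4.03 and 1 CPM in MI 1 to 4, at 71.1, 265, 67.1 and 65.7 in MI_soft and at 665, 146, 785 and 646 in MI_stiff. No count was recorded in any Sham library, and the MI and gel libraries did not overlap. The rise of 5.24 ± 0.86 (adjusted p = 0.0252) was 6.86 without MI 1 and 3.79 (adjusted p = 0.378) without the low-detection libraries. MI_soft 2 and MI_stiff 2 stood apart from their groups, the first towards higher and the second towards lower values.

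Dcstamp gave counts in a single untreated infarct, MI 1, at 0.246 CPM, and none in MI 2, MI 3 or MI 4. The gel libraries had 1.64, 1.98, 0.595 and 1.34 CPM with the soft gel and 9.03, 1.77, 4.99 and 9.81 with the stiff gel. Its rise was 5.17 ± 0.96 (adjusted p = 0.0296), and without the low-detection libraries it was 3.55 (adjusted p = 0.244). Among the 11 tested genes of macrophage fusion and osteoclast-type cells, Dcstamp was the 1 that passed. Of the 11, 10 had positive differences, and the median was 0.84. Dcstamp had no count in Sham, so only the gel libraries took it past the filter for low counts. A member that enters in this way favours a positive difference, so the signs and median of this list are no independent support. DESeq2 called 4 of the 11. Atp6v0d2, a proton pump subunit of osteoclasts, and Ocstamp, a further fusion protein, had differences of 3.83 (adjusted p = 0.0992) and 4.26 (adjusted p = 0.107).

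Hk3 lay at 5.22, 2.26, 2.06 and 0.547 CPM in MI, 9.26, 19.4, 4.69 and 20.6 in MI_soft and 38.1, 9.49, 68.9 and 59.2 in MI_stiff. MI_soft 3 fell within the MI range, below MI 1. Il1rn lay at 12, 2.51, 9.29 and 4.28 CPM in MI, 15.2, 36.2, 13.8 and 20.6 in MI_soft and 142, 10.8, 114 and 122 in MI_stiff. The stiff-gel libraries other than MI_stiff 2 were far above MI, and MI_stiff 2 sat within the MI range. The rises were 3.24 ± 0.60 for Hk3 (adjusted p = 0.0252) and 2.69 ± 0.55 for Il1rn (adjusted p = 0.0323). For Lilrb4 the values were 4.49, 3.27, 2.72 and 1.18 CPM in MI, 10.4, 18.6, 10.4 and 16 in MI_soft and 28.4, 4.74, 24.1 and 29.1 in MI_stiff, with no overlap. Its rise was 2.55 ± 0.51 (adjusted p = 0.0303). MI_stiff 2 was again the lowest gel library.

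A lysosomal pump subunit and a pair of enzymes rose as well. Atp6v1b2, a subunit of the proton pump that acidifies lysosomes, was at 89.7, 69.9, 75.1 and 76.4 CPM in MI, 130, 111, 100 and 109 in MI_soft and 207, 135, 164 and 211 in MI_stiff. All gel libraries were above all MI libraries, and the rise was 0.87 ± 0.16 (adjusted p = 0.0252). Sham lay at 115, 134, 124 and 113 CPM, so that MI was below Sham, the soft-gel libraries overlapped it and the stiff-gel libraries were above it. Pla2g7, a secreted phospholipase that inactivates platelet-activating factor, rose by 1.72 ± 0.32 from 12.2 ± 5.70 to 41.3 ± 17.2 CPM (SD, n = 4 and n = 8; adjusted p = 0.0252). Smpdl3a, a phosphodiesterase related to acid sphingomyelinase, rose by 1.60 ± 0.31 from 32.6 ± 15.6 to 106 ± 54.2 CPM (adjusted p = 0.0263). Neither gene's gel libraries overlapped MI.

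Lyz2, the lysozyme of macrophages, was the 1 of 28 tested macrophage and monocyte markers that passed. It lay at 604, 342, 301 and 253 CPM in MI, 971, 1670, 1110 and 3270 in MI_soft and 1850, 297, 1460 and 1390 in MI_stiff, and MI_stiff 2 fell within the MI range. The rise was 1.98 ± 0.43 (adjusted p = 0.0445), and 1.04 (adjusted p = 0.593) without the low-detection libraries. At an unadjusted p under 0.05, 19 of the 28 markers were higher and 1 lower, and DESeq2 called 9. Of the 28 markers, 27 had positive differences and the median was 1.18. The median moved to 1.89 without MI 1 and to 0.06 without the low-detection libraries. The summed level of the list was 2295 CPM in MI 1 and 785 to 1056 in the other MI libraries, against 2247 to 6836 in MI_soft and 999 to 3484 in MI_stiff, with no marker at 0 in all 12 libraries. MI 1 thus lay within the range of the gel libraries, and the other 3 untreated infarcts lay near or below its lower end. Cd68, a lysosomal protein of macrophages, had a difference of 1.55 (adjusted p = 0.118), Itgam, an integrin of myeloid cells, 2.09 (adjusted p = 0.107), and Cd163, a scavenger receptor of resident macrophages, 0.22 (adjusted p = 0.798).

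Gpnmb was also the 1 member of 25 lysosome and lipid-laden macrophage genes that passed, in a list with a median of 0.34 that was 0.50 without MI 1 and 0.41 without the low-detection libraries. DESeq2 called 8 of the 25. Ctsd, the lysosomal protease cathepsin D, had a difference of 1.07 (adjusted p = 0.0663), and Spp1, osteopontin, 1.44 (adjusted p = 0.129). Cd63, a membrane protein of lysosomes and other vesicles, had means of 400 CPM in MI, 402 in MI_soft and 397 in MI_stiff. None of 9 MHC class II genes passed in edgeR, although 5 were higher at an unadjusted p under 0.05 and DESeq2 called 1, with a median of 1.07 (0.10 without the low-detection libraries). None of 5 neutrophil markers passed at an adjusted or an unadjusted p under 0.05, or in DESeq2. Of 24 lymphocyte markers, 0 were higher and 1, Ccl21, was lower, with a median of 0.67 that was 1.7 for the soft and -0.72 for the stiff gel. That median was 1.58 without MI 1 and -0.11 without the low-detection libraries. DESeq2 called 2 of the 24, Ccl21 lower and Cxcl13 higher (difference 2.02). Ccl21 is also a member of the lymphatic list below.

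Syk, the kinase that carries signals from immune receptors with activating adaptors, and Blnk, an adaptor that Syk phosphorylates, both rose. Syk was at 28.3, 10.2, 9.48 and 14.0 CPM in MI, 46.5, 38.3, 33.6 and 53.6 in MI_soft and 34.4, 21.9, 35.8 and 45.0 in MI_stiff, with MI 1 above MI_stiff 2, and rose by 1.3 ± 0.28 (adjusted p = 0.0434). Without the low-detection libraries that value was 0.38 (adjusted p = 0.640). Blnk was at 6.95, 5.70, 3.75 and 5.01 CPM in MI, 13.5, 16.6, 9.05 and 16.7 in MI_soft and 12.2, 7.40, 11.2 and 15.7 in MI_stiff, without overlap, and rose by 1.25 ± 0.27 (adjusted p = 0.0434). Blnk was singled out after its values were seen, as were Gpr143, Ptcd3 and the other genes said below to lie outside the rule for named genes.

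Hmox1, the heme oxygenase that breaks down heme, was highest with the stiff gel. Its levels were 35.0, 30.1, 14.4 and 25 CPM in MI, 42.4, 48.0, 31.1 and 22.6 in MI_soft and 128, 83.6, 94.0 and 84.2 in MI_stiff. All stiff-gel libraries were above all others, while the soft-gel libraries overlapped MI. The pooled rise was 1.18 ± 0.25 (adjusted p = 0.0416). Hmox1 was the 1 of 17 heme and iron genes and the 1 of 26 antioxidant genes that passed, and the medians of these lists were 0.04 and -0.09.

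Tnn, tenascin-N, a matrix glycoprotein, had no count in any Sham library and 4.61, 2.93, 1.03 and 3.46 CPM in MI 1 to 4. With the gels it was at 20.8, 49.6, 17.8 and 14.8 CPM in MI_soft and 103, 8.77, 38.8 and 70.7 in MI_stiff. The groups did not overlap, and the rise of 3.63 ± 0.63 (adjusted p = 0.0252) was 3.12 (adjusted p = 0.471) without the low-detection libraries.

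Both Gpnmb and Mmp12 carry 1 copy of TGACTCA, read on both strands, in the 250 bases before the annotated start of transcription. This is the recognition sequence of AP-1, the factor formed by Fos and Jun proteins. The windows are shown because both are genes of macrophages that rose and hold the same letters at the same place. They come from RefSeq on the GRCr8 assembly, not the rn7 build of the files, were matched by symbol, and have the match in capitals.
Gpnmb (chr4:79340878-79341127, strand +): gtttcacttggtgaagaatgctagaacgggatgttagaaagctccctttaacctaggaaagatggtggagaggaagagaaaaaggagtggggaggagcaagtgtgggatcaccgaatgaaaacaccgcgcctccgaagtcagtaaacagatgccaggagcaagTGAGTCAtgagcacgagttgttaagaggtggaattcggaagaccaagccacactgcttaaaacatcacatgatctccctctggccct
Mmp12 (chr8:12866402-12866651, strand +): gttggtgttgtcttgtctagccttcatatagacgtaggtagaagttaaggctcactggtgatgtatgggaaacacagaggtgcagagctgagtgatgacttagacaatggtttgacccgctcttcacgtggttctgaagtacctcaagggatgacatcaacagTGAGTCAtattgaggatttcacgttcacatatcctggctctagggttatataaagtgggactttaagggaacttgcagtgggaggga
In each gene the match starts 87 bases before the transcription start and reads TGAGTCA on the strand of the gene. Of 33469 promoters in the table, 4.05% held such a match, and of the 56 called genes with an entry 5 did: Gpnmb, Mmp12, Pla2g7, Atp5if1 and Ephx1. A match is a run of letters and was not tested as a binding site. Levels of Fos are given below with the other early genes, and whether AP-1 had a part in these rises was not tested.

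**Figure D1:**
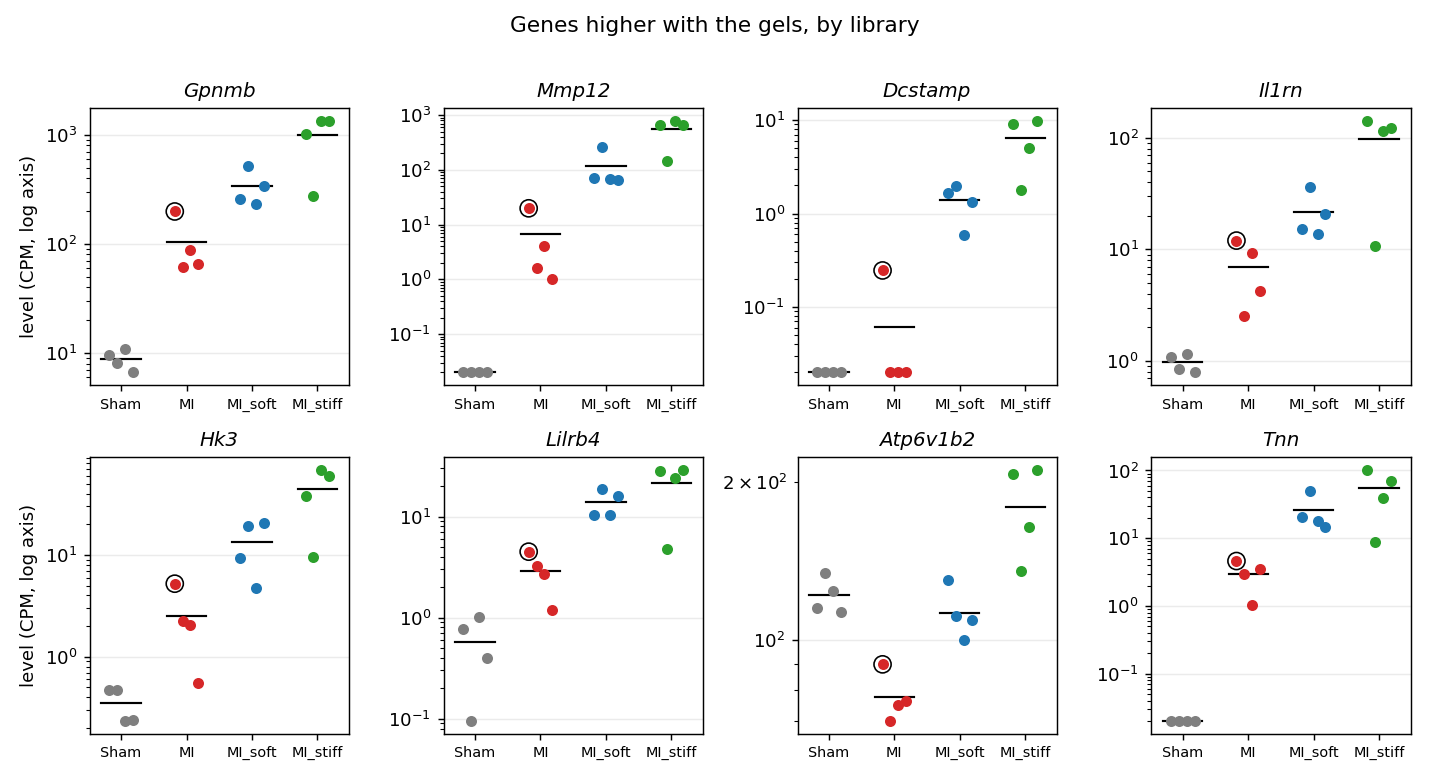
Levels of 8 genes that were higher with the gels, in CPM on a log axis, for each library of Sham (grey), MI (red), MI_soft (blue) and MI_stiff (green). Short lines are group means, MI 1 is circled, and values of 0 or below 0.02 are drawn at 0.02. For Gpnmb, Mmp12, Dcstamp, Lilrb4, Atp6v1b2 and Tnn all 8 gel libraries lie above the 4 MI libraries, and MI 1 is the highest MI library in every panel.

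Single genes of heart muscle and of mitochondria rose by smaller amounts, while most members of the fixed muscle and mitochondrial lists did not pass. Atp2a2, the pump that returns calcium to the sarcoplasmic reticulum after each beat, rose 2.04-fold, and Tnni3k, a kinase of cardiomyocytes, rose 2.26-fold. Both were lower in MI than in Sham, and with the gels both stayed below Sham. Pdk1, Acsf2, Slc25a34, Oxnad1, Fdx1 and Ptcd3, whose proteins act in mitochondria, also rose.

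Atp2a2 was at 2770, 1430, 3750 and 2090 CPM in MI, 5610, 4100, 4650 and 5060 in MI_soft, 5880, 5500, 4870 and 5250 in MI_stiff and 15300, 16000, 15100 and 13400 in Sham. Every gel library was above every MI library and below every Sham library. The rise was 1.03 ± 0.22 (adjusted p = 0.0418), and 0.87 (adjusted p = 0.196) without the low-detection libraries. Per length, Atp2a2 averaged 567 TPM in MI and 1260 TPM with the gels. It was the 1 of 21 calcium handling and ion channel genes that edgeR called, with 9 at an unadjusted p under 0.05 and 4 called by DESeq2, with 18 of the 21 positive and a median of 0.53 that was 0.99 without MI 1 and 0.06 without the low-detection libraries. Pln, the small protein that restrains the pump, had a difference of 0.79 (adjusted p = 0.0663), and Ryr2, the channel that releases the stored calcium, 1.22 (adjusted p = 0.242).

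Tnni3k was at 55.2, 31.6, 57.2 and 36.4 CPM in MI, 133, 81.9, 114 and 92.7 in MI_soft, 88.1, 107, 78.2 and 121 in MI_stiff and 278, 297, 313 and 240 in Sham. The order was again MI, gels and Sham with no overlap at either step, and the rise was 1.18 ± 0.20 (adjusted p = 0.0252). The differences were near each other for both gels, 1.22 ± 0.23 with the soft and 1.13 ± 0.23 with the stiff gel.

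Slc38a1, a glutamine transporter, rose by 1.39 ± 0.31 (adjusted p = 0.0498), from 11.1, 4.94, 3.57 and 4.19 CPM in MI to 18.2, 18.4, 20.3 and 9.36 in MI_soft and 12.2, 20.5, 14.7 and 12.5 in MI_stiff. MI 1 lay above MI_soft 4, and the other 3 MI libraries lay below every gel library. Without the low-detection libraries its difference was 0.60 (adjusted p = 0.458). The next 7 genes lie outside the rule for named genes and were chosen after their values were seen. Pdk1, the kinase that shuts pyruvate dehydrogenase, rose by 0.90 ± 0.19 from 33.1 to 61.5 to 64.0 to 113 CPM. Acsf2, an acyl-CoA synthetase, rose by 0.93 ± 0.21 from 40.1 to 74.7 to 75.4 to 152 CPM. Slc25a34, a carrier of the mitochondrial inner membrane, rose by 1.17 ± 0.25 from 11.3 to 22.2 to 25.5 to 69.5 CPM. Those genes and Oxnad1, an oxidoreductase that rose by 0.71 ± 0.15, did not overlap between MI and the gels. Fdx1, the ferredoxin of mitochondrial steroid and iron-sulfur pathways, rose by 0.81 ± 0.18 with MI 1 just above MI_soft 2. Ptcd3, a protein of the mitochondrial ribosome, rose by 1.22 ± 0.24 from 35.4 to 54.5 to 44.3 to 188 CPM. Stradb, a partner of the kinase LKB1, rose by 0.80 ± 0.18 from 20.9 to 30.9 to 34.8 to 58.4 CPM. The adjusted p of these 7 ran from 0.0263 for Ptcd3 to 0.0498 for Acsf2.

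Larger lists of muscle energy genes did not reach the threshold. None of 30 fatty acid genes passed in edgeR, 10 were higher and 1 lower at an unadjusted p under 0.05, and DESeq2 called 5, with 23 positive and a median of 0.35 (0.39 without the low-detection libraries and 0.39 without MI 1). None of 15 genes of branched-chain amino acid breakdown passed in edgeR, although 14 were positive, 4 at an unadjusted p under 0.05 and 2 in DESeq2, with a median of 0.43. Ivd, isovaleryl-CoA dehydrogenase of that pathway, had a difference of 0.75 ± 0.18 (adjusted p = 0.0694). The respiratory chain and tricarboxylic acid cycle list had 0 of 38 called by edgeR, 14 at an unadjusted p under 0.05 and 7 called by DESeq2, and a median of 0.18. Sdhc, a subunit of succinate dehydrogenase, had 275, 167, 227 and 187 CPM in MI, 372, 333, 306 and 547 in MI_soft and 458, 366, 296 and 339 in MI_stiff (difference 0.82 ± 0.20, adjusted p = 0.0693). Its groups did not overlap. Among 15 sarcomere genes edgeR and DESeq2 each called 0. At an unadjusted p under 0.05 in edgeR, 1 was higher and 3 were lower, with Myl2, discussed at the end, among the lower. The median was 0.11, with 0.45 for the soft and -0.19 for the stiff gel. Among 15 cardiac transcription factors edgeR called 0, 5 had an unadjusted p under 0.05 and DESeq2 called 1, with a median of 0.83 that became -0.38 without the low-detection libraries.

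Some raised genes had almost no counts in MI. Gpr143, a receptor of pigment organelles, had 0 counts over the 4 MI libraries and 131 over the 8 gel libraries, at least 20.1-fold higher per library total against a floor of 3 counts over the MI group. Cpne6, a calcium-dependent membrane-binding protein, had 1 count against 112, a ratio of 51.6 with an exact counting interval of 9.07 to 2060. Gpr75, a membrane receptor, had 1 count against 96, a ratio of 44.2 with an interval of 7.75 to 1760. The single counts were both in MI 1. For Cpne6 and Gpr75 the Sham libraries lay at 0.855, 1.04, 0.776 and 0.634 and at 0.933, 0.378, 0.388 and 0.555 CPM, near the gel libraries, whereas Gpr143 had no count in Sham. The intervals cover counting error only, and all 3 genes lie outside the rule for named genes.

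Of 11 tested genes of lymphatic vessels, which drain fluid and immune cells from tissue, 3 fell and 8 did not pass. Mmrn1, multimerin, a secreted protein of lymphatic endothelium, fell 4.25-fold and was the gene with the smallest p of the comparison. Ccl21, the chemokine by which lymphatic vessels draw in dendritic cells and T cells, fell 4.47-fold, and Pdpn, podoplanin, a surface protein of lymphatic endothelium and of some fibroblasts, fell 2.24-fold. Of all tested genes 0.378% were called lower.

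Mmrn1 lay at 49.2, 83.2, 71.6 and 98.3 CPM in MI 1 to 4, at 15.8, 24.9, 22.5 and 9.19 in MI_soft and at 18.1, 26.2, 13.9 and 11.7 in MI_stiff. All gel libraries were below all MI libraries, and MI 1 was the lowest MI library. It fell by 2.09 ± 0.26 (adjusted p = 0.00365), by nearly the same amount with both gels (-2.06 ± 0.33 soft, -2.11 ± 0.33 stiff). Sham libraries were lower still, at 10.6, 8.89, 7.69 and 5.63 CPM. Without the low-detection libraries the difference was -1.36 (adjusted p = 0.0892).

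Ccl21 lay at 515, 624, 184 and 224 CPM in MI, 91.4, 121, 106 and 257 in MI_soft and 56.0, 54.9, 32.7 and 64.9 in MI_stiff. MI_soft 4 overlapped MI, and every stiff-gel library was below every soft-gel library. It fell by 2.16 ± 0.31 (adjusted p = 0.0106), by -2.80 on the same scale (adjusted p = 6.59e-06) without the low-detection libraries and -2.01 without MI 1. Pdpn lay at 32.5, 53.7, 19.1 and 23.0 CPM in MI, 11.6, 18.9, 11.2 and 15.6 in MI_soft and 16.3, 16.2, 12.5 and 12.5 in MI_stiff. The lowest MI library was just above the highest gel library, and Pdpn fell by 1.16 ± 0.25 (adjusted p = 0.0430).

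edgeR called no other member of the lymphatic list, and DESeq2 called Reln as a further member. The list's median was -0.53, -0.59 without MI 1 and -1.01 without the low-detection libraries, and 10 of 11 members were negative. Reln, reelin, which lymphatic endothelium also secretes, had a difference of -1.33 (adjusted p = 0.0992), and Lyve1, a receptor of lymphatic endothelium and of some macrophages, -0.53 (adjusted p = 0.169). The exception was Prox1, the transcription factor that specifies lymphatic identity, at 0.246 CPM in MI, 0.890 in MI_soft and 1.21 in MI_stiff (difference 1.89, adjusted p = 0.330). Flt4, the receptor for lymphatic growth factors, had -0.58 (adjusted p = 0.595). The summed level of the list was 583 to 1214 CPM in MI, 410 to 550 in MI_soft, 272 to 508 in MI_stiff and 120 to 134 in Sham, so the MI and gel ranges did not overlap. Of the list's genes, Stab2 was at 0 in all 12 libraries.

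Among genes of endothelium in general, edgeR called 0 of 20, 5 were lower at an unadjusted p under 0.05, DESeq2 called 3, and the median was -0.30. Emcn, an endothelial sialomucin, had 46.7, 116, 96.4 and 123 CPM in MI, 41.5, 59.8, 31.7 and 55.7 in MI_soft and 51.6, 54.0, 49.6 and 40.0 in MI_stiff (difference -0.99, adjusted p = 0.0549), with MI 1 within the gel range. Lmo2, a transcription cofactor of blood and endothelial cells, fell by 1.18 ± 0.20 (adjusted p = 0.0252), from 31.2, 45.3, 38.5 and 64.6 CPM in MI to 19.6, 23.3, 15.5 and 12.4 in MI_soft and 19.7, 19.8, 22.7 and 26 in MI_stiff, with no overlap. Its difference was -0.60 (adjusted p = 0.320) without the low-detection libraries.

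Immediate early genes are those that cells switch on within minutes of a stimulus. Of 19 tested, 4 fell, 0 rose and 15 did not pass, against 0.378% of all tested genes called lower. The 4 were Fos, a partner in the AP-1 factor, Egr1, a zinc finger factor, Nr4a1, an orphan nuclear receptor, and Dusp1, the phosphatase that switches off MAP kinases. The falls were 3.41-fold, 3.22-fold, 3.77-fold and 1.91-fold, in that order.

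Fos lay at 24.4, 19.5, 25.1 and 12.7 CPM in MI, 5.75, 5.17, 9.58 and 4.60 in MI_soft and 9.42, 5.23, 4.92 and 3.22 in MI_stiff. The groups did not overlap, and Fos fell by 1.77 ± 0.33 (adjusted p = 0.0252). Dusp1 lay at 171, 228, 178 and 149 CPM in MI, 105, 83.1, 128 and 115 in MI_soft and 93.8, 84.6, 80.6 and 75.8 in MI_stiff, again without overlap, and fell by 0.94 ± 0.17 (adjusted p = 0.0252). Without the low-detection libraries the differences were -1.97 for Fos (adjusted p = 0.0864) and -0.87 for Dusp1 (adjusted p = 0.172).

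Egr1 lay at 102, 127, 24.2 and 51.4 CPM in MI, 19.1, 26.8, 35.0 and 13.0 in MI_soft and 35.6, 17.0, 24.7 and 18.5 in MI_stiff. MI 3 was within the gel range, and the fall was 1.69 ± 0.34 (adjusted p = 0.0303). Nr4a1 lay at 53.9, 113, 6.94 and 46.2 CPM in MI, 17.6, 18.5, 18.4 and 16.6 in MI_soft and 9.72, 10.2, 17.4 and 10.5 in MI_stiff. Here MI 3 was below every gel library while the other MI libraries were above them, and the fall was 1.91 ± 0.39 (adjusted p = 0.0312). Over the 16 fits that left out a single library, Egr1 was called in 9 (highest adjusted p = 0.164) and Nr4a1 in 4 (highest adjusted p = 0.193). Both were called without the low-detection libraries, Egr1 at -2.01 (adjusted p = 0.00531) and Nr4a1 at -1.87 (adjusted p = 0.00223), and without MI 1, at -1.54 (adjusted p = 0.0120) and -1.95 (adjusted p = 0.00807).

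The list was not uniform. Its median was -0.53, -0.44 without MI 1 and -0.28 without the low-detection libraries, and 7 of the 19 were positive. Jun, the usual partner of Fos, had means of 50.2 CPM in MI, 52.6 in MI_soft and 50.7 in MI_stiff (difference 0.04, adjusted p = 0.949). Atf3, a stress-induced factor, had 23.4, 19.4 and 69.1 CPM (0.64, adjusted p = 0.239), and Egr4 was at 0 in all 12 libraries. The summed list ranged over 624 to 1544 CPM in MI and overlapped the gels.

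Related genes from other lists fell as well. Ccn1, a matricellular protein induced early by serum and stretch and a target of YAP and TAZ, fell by 1.06 ± 0.21 (adjusted p = 0.0303), from 74.1, 113, 55.4 and 92.4 CPM in MI to 45.9, 42.7, 64.8 and 34 in MI_soft and 44.3, 26, 37.3 and 30.2 in MI_stiff. The other 17 tested YAP and TAZ genes did not pass, and the list's median was 0.13. Nfkbia, the inhibitor that NF-kappa-B induces against itself, fell by 1.35 ± 0.30 (adjusted p = 0.0491), from 56.2, 179, 168 and 296 CPM in MI to 105, 65.2, 102 and 39.3 in MI_soft and 53.0, 56.0, 66.5 and 66.2 in MI_stiff. MI 1 lay within the gel range, and without the low-detection libraries the sign of Nfkbia turned, to 0.39 (adjusted p = 0.548). Apold1, an early response gene of endothelium outside the rule for named genes, fell by 1.40 ± 0.28 (adjusted p = 0.0303) without overlap.

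Early genes are known for promoter elements that respond to growth signals, the CArG box bound by serum response factor and the cyclic AMP response element TGACGTCA, often as the shorter TGACG. The 250 bases before the start of 3 of the fallen early genes are shown, and Fos, which also fell, had no entry. Capitals mark CArG boxes in Egr1 and TGACG, on either strand, in Dusp1 and Nr4a1.
Egr1 (chr18:26736828-26737077, strand +): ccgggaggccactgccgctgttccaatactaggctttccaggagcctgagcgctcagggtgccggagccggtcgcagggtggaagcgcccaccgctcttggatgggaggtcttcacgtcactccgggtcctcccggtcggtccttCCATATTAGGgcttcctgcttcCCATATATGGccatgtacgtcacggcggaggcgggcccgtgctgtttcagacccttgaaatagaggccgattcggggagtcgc
Dusp1 (chr10:17184603-17184852, strand +): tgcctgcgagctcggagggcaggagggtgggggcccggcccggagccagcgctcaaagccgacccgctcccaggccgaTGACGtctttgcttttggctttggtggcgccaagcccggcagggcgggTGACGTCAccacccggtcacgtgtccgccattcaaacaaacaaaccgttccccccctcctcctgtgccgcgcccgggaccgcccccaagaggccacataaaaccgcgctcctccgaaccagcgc
Nr4a1 (chr7:134259888-134260137, strand +): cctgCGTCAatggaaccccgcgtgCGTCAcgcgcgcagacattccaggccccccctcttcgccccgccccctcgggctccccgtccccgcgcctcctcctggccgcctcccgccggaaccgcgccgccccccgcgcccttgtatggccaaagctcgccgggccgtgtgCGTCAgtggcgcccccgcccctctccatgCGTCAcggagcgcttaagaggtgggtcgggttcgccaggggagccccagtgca
Egr1 held 2 CArG boxes, 105 and 83 bases before the start, and 2 matches of TGACG that are left in lower case. In Dusp1, 3 matches of TGACG were found, of which 2 overlap as TGACGTCA, 124 bases before the start. Nr4a1 held 4 matches, all on the opposite strand. Of all promoters in the table, 1.5% held a CArG box, 1.59% TGACGTCA and 18.2% TGACG. Among the 56 called genes with an entry these numbers were 2 (Egr1 and Rplp1), 1 (Dusp1) and 13.

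Of 74 tested cytosolic ribosomal protein genes 6 fell, 0 rose and the others did not pass, against 0.378% of all tested genes called lower. This family was gathered by symbol after the calls were seen. Rps24, a protein of the small ribosomal subunit, fell 3.20-fold, Rpl27a, of the large subunit, 2.20-fold, and Tpt1, an abundant protein regulated at translation, 2.24-fold. Rplp1, Rps12 and Rpl36a fell too, but each shares all its counts with a near-identical gene model (LOC100360522, LOC100360573, and Rpl36al with LOC108348287), with Rpl36a and Rpl36al both among the 6, so their own levels are uncertain. Ribosomal protein genes have many processed copies in the genome, and the share of reads that such copies take was not tested.

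Rps24 lay at 105, 282, 303 and 420 CPM in MI 1 to 4, 77.4, 103, 88.9 and 87.4 in MI_soft and 68.5, 66.4, 84.8 and 117 in MI_stiff. MI 1 was within the gel range, and the other MI libraries were far above it. The fall was 1.68 ± 0.26 (adjusted p = 0.0199), -1.95 without MI 1 and -0.28 (adjusted p = 0.747) without the low-detection libraries. Tpt1 lay at 1550, 2820, 3180 and 4560 CPM in MI, 1250, 1510, 1190 and 1010 in MI_soft and 1400, 1680, 1210 and 1590 in MI_stiff, with MI 1 again among the gel libraries, and its fall of 1.17 ± 0.22 (adjusted p = 0.0252) became -0.16 without the low-detection libraries. Rpl27a lay at 240, 360, 353 and 606 CPM in MI, 152, 209, 170 and 298 in MI_soft and 148, 131, 152 and 173 in MI_stiff. It fell by 1.14 ± 0.22 (adjusted p = 0.0256). Rplp1 fell by 2.16 ± 0.37, and without the low-detection libraries its sign turned, to 0.29. Naca, a subunit of the complex that meets nascent chains at the ribosome, fell by 0.79 ± 0.16 (adjusted p = 0.0312) from 223 to 364 to 126 to 259 CPM.

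Over the 74 genes the median difference was -0.52, 69 were negative and 38 had an unadjusted p under 0.05. In the fixed list of 26 such genes 1 was called, Rplp1, which shares its counts with another gene model. That list's median was -0.55, -0.61 without MI 1 and -0.16 without the low-detection libraries. In CPM summed over the family without genes of identical counts, MI 1 had 16960, MI 2 to 4 had 26370, 20680 and 30850, MI_soft 1 to 4 had 14910, 17930, 15080 and 27060, and MI_stiff 1 to 4 had 17460, 13100, 10530 and 14560. The 4 highest totals belonged to MI 4, MI_soft 4, MI 2 and MI 3, the libraries with the fewest genes detected, and MI 1 lay among the remaining gel libraries. Sham had 7526 to 9293. Mitochondrial ribosomal proteins, a separate list of 27, had 0 edgeR calls, 7 at an unadjusted p under 0.05, 3 DESeq2 calls and a median of 0.06.

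Transcripts of ribosomal proteins typically begin with a run of pyrimidines (C and T) through which growth signalling controls their translation. The start region of 3 of the fallen genes, 20 bases before to 30 after the annotated start, is shown with a run of at least 8 pyrimidines in capitals.
Rps24 (chr16:96497-96546, strand +): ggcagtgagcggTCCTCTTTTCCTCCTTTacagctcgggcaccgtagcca
Rplp1 (chr8:71290843-71290892, strand -): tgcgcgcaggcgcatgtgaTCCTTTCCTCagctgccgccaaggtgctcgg
Rpl27a (chr1:172974553-172974602, strand +): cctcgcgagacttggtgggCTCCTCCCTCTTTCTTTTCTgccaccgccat
Of the fallen ribosomal genes with an entry, Rps12 held no such run, and Rpl36a held one that is not shown. The run spans 17 bases in Rps24, 10 in Rplp1 and 20 in Rpl27a. Such a run lay in this window in 19.1% of all promoters in the table and in 15 of the 56 called genes with an entry. RNA levels do not measure translation.

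Matrix and fibroblast genes were lower in part. Gsn, gelsolin, which severs actin filaments and is abundant in resting fibroblasts, fell 1.83-fold. Thbs4, a thrombospondin deposited in stressed heart and tendon, fell 3.20-fold, and Meox1, a transcription factor of activated fibroblasts, fell 4.38-fold. They were 1 of 18 resting and 2 of 16 activated fibroblast markers, against 0.378% of all tested genes called lower. The list medians were -0.40 and -0.38. For the resting list the median was -0.35 with the soft and -0.53 with the stiff gel, and for the activated list -0.17 and -0.86. The pooled medians, resting list first, were -0.25 and -0.48 without the low-detection libraries, and -0.38 and -0.36 without MI 1.

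Gsn lay at 2560, 3890, 2670 and 2950 CPM in MI, 1410, 1550, 1800 and 1640 in MI_soft and 1500, 1770, 1450 and 2040 in MI_stiff, with all gel libraries below MI and near the Sham level of 1600, 1520, 1580 and 1580. It fell by 0.88 ± 0.16 (adjusted p = 0.0252). Thbs4 lay at 333, 335, 271 and 472 CPM in MI, 92.3, 157, 175 and 232 in MI_soft and 58.5, 50.0, 83.6 and 104 in MI_stiff. The groups did not overlap, the fall was 1.68 ± 0.31 (adjusted p = 0.0252), and Sham was far lower, at 2.33, 2.27, 4.97 and 0.713 CPM. Meox1 lay at 6.52, 20.4, 14.4 and 25.9 CPM in MI, 5.08, 3.19, 6.67 and 2.17 in MI_soft and 4.52, 3.14, 2.60 and 3.36 in MI_stiff. MI 1 lay just below MI_soft 3, and the fall of 2.13 ± 0.40 (adjusted p = 0.0252) was -0.66 (adjusted p = 0.670) without the low-detection libraries.

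edgeR called no collagen. Of 28 collagen and matricellular genes, Thbs4 and Ccn1 fell and 0 rose, against 0.378% of all tested genes called lower. In edgeR 7 had an unadjusted p under 0.05. DESeq2 also called Col4a2 and Spp1, both higher, and the list's median was -0.10. All 8 tested small leucine-rich proteoglycans, which organise collagen fibrils, were negative with a median of -0.62, but edgeR called 0, with 4 at an unadjusted p under 0.05 and 1 called by DESeq2. Lum, lumican, had 1177 ± 175 CPM in MI and 641 ± 250 with the gels (SD, n = 4 and n = 8; difference -0.88, adjusted p = 0.115), and Postn, periostin of activated fibroblasts, a difference of -0.34 (adjusted p = 0.575). Of 30 genes of matrix turnover, Mmp12 rose and 0 fell, and of 20 TGF-beta genes edgeR and DESeq2 each called 0, with 5 lower at an unadjusted p under 0.05 (median -0.27).

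Further fallen genes outside the rule for named genes were Ecm2, a matrix protein, C1qtnf7, a secreted relative of complement C1q, Uchl1, a ubiquitin hydrolase, Fam167a, Tmem43, a nuclear envelope protein, and Ephx1, an epoxide hydrolase. Uchl1, Fam167a and Tmem43 did not overlap between the groups. Uchl1 lay at 9.96, 12.1, 10.8 and 14.9 CPM in MI, 6.35, 6.24, 6.67 and 3.76 in MI_soft and 4.52, 3.54, 1.69 and 2.01 in MI_stiff, with Sham near 0, and fell by 1.53 ± 0.32 (adjusted p = 0.0355). Ephx1 lay at 34.9, 69.7, 75.2 and 66.6 CPM in MI, 34.1, 43.6, 34.3 and 69.9 in MI_soft and 10.7, 19.5, 21.5 and 23.6 in MI_stiff, so that the soft-gel libraries overlapped MI while the stiff-gel libraries did not (pooled fall 1.07 ± 0.24, adjusted p = 0.0491). Tmem43 fell by 0.80 ± 0.15 and Fam167a by 1.22 ± 0.25. Ecm2 fell by 1.07 ± 0.22 and C1qtnf7 by 0.99 ± 0.21.

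Of 9 tested skeletal muscle genes 2 fell, against 0.378% of all tested genes called lower, with values that rested largely on MI 1. Myl1, a light chain of fast skeletal myosin, lay at 347, 73.3, 30.1 and 42.5 CPM in MI, 36.2, 78.9, 35.0 and 42.1 in MI_soft and 13.4, 17.1, 4.43 and 17.3 in MI_stiff. MI 1 was far above all other libraries, MI 2 to 4 overlapped the soft gel, and the fall of 2.30 ± 0.50 (adjusted p = 0.0434) was -0.97 (adjusted p = 0.0792) without MI 1. Tnnt1, troponin T of slow skeletal muscle, lay at 40.0, 5.86, 0.375 and 2.64 CPM in MI, 2.91, 4.26, 2.91 and 2.17 in MI_soft and 0.612, 0.322, 0.774 and 0.739 in MI_stiff. Its fall of 3.15 ± 0.69 (adjusted p = 0.0466) likewise was -1.13 (adjusted p = 0.219) without MI 1, and -4.79 (adjusted p = 3.72e-06) with MI 1 as the single untreated infarct. Both were called in 2 of the 16 fits that left out a single library. The list's median was -1.23 with all libraries and 0.05 without MI 1. Its summed level overlapped, at 9628 to 13420 CPM in MI, 10520 to 21090 in MI_soft and 8523 to 11150 in MI_stiff. In Sham the sum was 13470 to 18280 CPM, although Myl1 and Tnnt1 averaged 0.81 and 0.36 CPM there. Other members thus carried the sum, and its overlap does not bear on Myl1 and Tnnt1.

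Tpm2, beta-tropomyosin, lay at 319, 323, 42.7 and 155 CPM in MI, 74.6, 140, 133 and 111 in MI_soft and 27.4, 21.1, 35.4 and 29.9 in MI_stiff. MI 3 lay between the stiff-gel and the soft-gel libraries, and the fall was 1.88 ± 0.41 (adjusted p = 0.0445). Mustn1, a nuclear protein of the musculoskeletal system, lay at 76.0, 139, 22.6 and 70.5 CPM in MI, 19.1, 36.4, 27.0 and 49.9 in MI_soft and 22.8, 17.4, 12.2 and 18 in MI_stiff. MI 3 again lay within the gel range. Mustn1 fell by 1.68 ± 0.33 (adjusted p = 0.0303) and was called without the low-detection libraries too (-1.79, adjusted p = 0.00843).

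Of the remaining fallen genes, Cirbp, an RNA-binding protein induced by cold, and Nck2, an adaptor between receptor kinases and actin, were lowest with the soft gel. Cirbp lay at 30.1, 54.8, 54.4 and 51.9 CPM in MI, 16.1, 20.4, 17.5 and 13.7 in MI_soft and 29.8, 35.1, 24.3 and 45.0 in MI_stiff, and MI 1 overlapped the stiff-gel libraries. Its fall was 1.0 ± 0.19 (adjusted p = 0.0261), and the other 17 tested cold- and heat-response genes did not pass. Nck2 lay at 21.0, 34.3, 33.3 and 24.4 CPM in MI, 11.7, 10.3, 14.7 and 8.86 in MI_soft and 21.4, 21.8, 21.0 and 19.5 in MI_stiff and fell by 0.87 ± 0.18 (adjusted p = 0.0312). Outside the rule for named genes, Pald1, an endothelial protein, fell by 0.92 ± 0.19 and Map3k7cl by 1.37 ± 0.27. Atp5if1, the inhibitor of mitochondrial ATP synthase, fell by 1.29 ± 0.26, and its sign turned without the low-detection libraries (0.17). Dynll1, a light chain of dynein, and Snrpf, a protein of the spliceosome, fell by 0.83 ± 0.18 and 1.18 ± 0.26 and had -0.01 and -0.12 without the low-detection libraries.

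**Figure D2:**
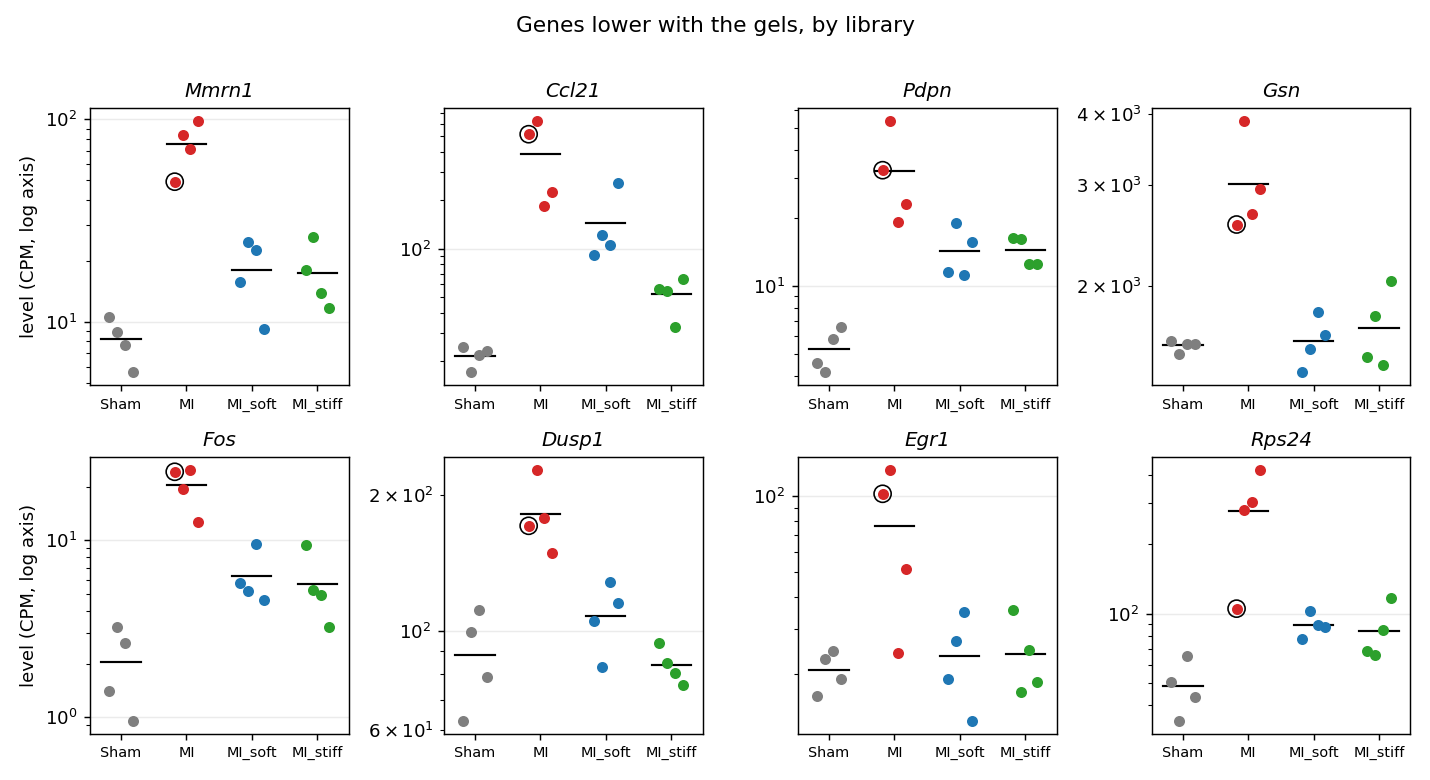
Levels of 8 genes that were lower with the gels, in CPM on a log axis, for each library of Sham (grey), MI (red), MI_soft (blue) and MI_stiff (green), with group means as short lines and MI 1 circled. For Mmrn1, Pdpn, Gsn, Fos and Dusp1 all 8 gel libraries lie below the 4 MI libraries, and for Rps24 MI 1 lies within the gel range.

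Pooling the gels could hide a difference between them, so each gel's own value and the direct test of stiff against soft were read beside the pooled value. Of all tested genes 11 (0.0967%) differed between MI_stiff and MI_soft, 7 higher and 4 lower in MI_stiff, and 0 of the 70 were among them in the edgeR test. At an unadjusted p under 0.05 in that test 23 of the 70 differed, 13 higher and 10 lower in MI_stiff, against 14.3% of all tested genes (5.14% higher and 9.19% lower). DESeq2 called 12 of the 70, against 2.44% of all tested genes, limma-voom 1 (0.149%) and the fit with library quality weights 16 (4.47%). The lowest adjusted p among the 70 was 0.0507, for Hmox1, whose stiff-minus-soft difference was 1.44 (95% interval 0.85 to 2.02). Both gel values share the MI libraries and are given side by side without a test of their overlap. The size of the difference from MI was larger with the stiff gel for 47 of the 70. With the soft gel alone no raised gene passed against MI, the lowest adjusted p being 0.0732 for Tnni3k. Mmrn1, Cirbp and Nck2, all lower, did pass with it (adjusted p = 0.0316 each). For Il1rn and Hmox1 the adjusted p was 0.213 and 0.431 with the soft and 0.0103 and 0.0068 with the stiff gel.

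For some genes the gels were close. Mmrn1 differed by -0.05 between them (-0.72 to 0.62), Gsn by 0.08 (-0.31 to 0.47), Tnni3k by -0.09 (-0.56 to 0.37) and Egr1 by 0.03 (-0.83 to 0.88). All 4 intervals leave out a difference of 1 log2 unit, and those of Gsn and Tnni3k are the narrower ones. For others the stiff gel had the larger value. Gpnmb was 1.71 ± 0.44 above MI with the soft and 3.27 ± 0.47 with the stiff gel, a difference of 1.56 (0.64 to 2.48, adjusted p = 0.138). Mmp12 was 4.11 ± 0.85 and 6.37 ± 0.94 (difference 2.26, 0.63 to 3.88, adjusted p = 0.213). Il1rn was 1.60 ± 0.57 and 3.79 ± 0.62 (difference 2.19, 0.98 to 3.39, adjusted p = 0.117). Ccl21 was -1.43 ± 0.38 and -2.89 ± 0.40 (difference -1.47, -2.27 to -0.66, adjusted p = 0.117), and Tpm2 -0.87 ± 0.49 and -2.88 ± 0.53 (adjusted p = 0.107). The soft gel had the larger value for Cirbp, -1.50 ± 0.23 against -0.51 ± 0.23 (adjusted p = 0.0871), and for Nck2, -1.31 ± 0.21 against -0.43 ± 0.21 (adjusted p = 0.0920). None of these differences between the gels passed the threshold.

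**Figure D3:**
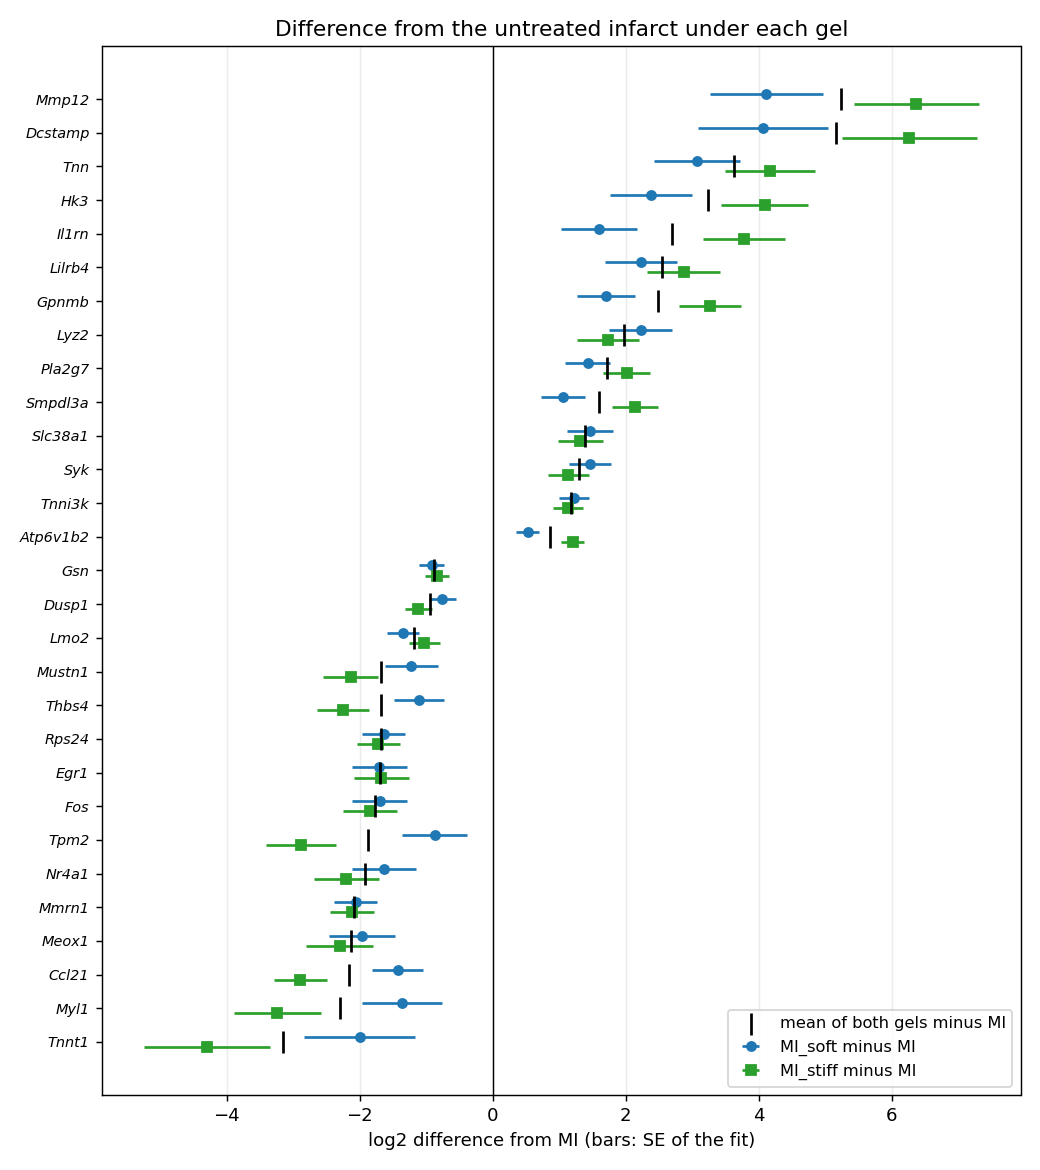
Log2 difference from MI for each gel (circles MI_soft, squares MI_stiff, bars the SE of the fit) for the genes with the largest rises, the largest falls and the smallest p, with black ticks at the mean of both gels. Every gene has the same sign with both gels, the values nearly coincide for Mmrn1, Rps24, Egr1 and Tnni3k, and they lie farther apart for Mmp12, Il1rn, Tpm2 and Tnnt1.

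Further lists without a call are given by their medians and by the member of smallest p. In a list of 14 genes raised in stressed or stretched ventricle the median was -0.29, with 0.07 for the soft and -0.66 for the stiff gel. At an unadjusted p under 0.05, 2 of these were higher and 5 lower, and DESeq2 called 0. Ankrd2 of that list had a difference of -2.02 (adjusted p = 0.178). Fgf12, a growth factor relative of the atrial list, had a difference of 1.66 (adjusted p = 0.0693), against a list median of -0.53. Slc2a4, the insulin-regulated glucose transporter, had 0.86 (adjusted p = 0.0797) in a glycolysis list of median 0.27. Actg2, smooth muscle actin, had -1.51 (adjusted p = 0.0910) in a smooth muscle list of median -0.23. Plk1, a mitotic kinase, had 1.23 (adjusted p = 0.165) in a cell cycle list of median 0.43. Cnp, a myelin enzyme, had -0.71 (adjusted p = 0.150) in a Schwann cell and nerve list of median -0.67. Pdgfa, a growth factor, had -0.86 (adjusted p = 0.0755) in an angiogenic and hypoxia list of median 0.17. Itgb2 had 2.33 (adjusted p = 0.0694) in a complement list of median 0.16. Per2, a clock gene, had -0.59 (adjusted p = 0.290) in a clock list of median -0.02, and Ifit2, an interferon target, -0.71 (adjusted p = 0.156) in an interferon list of median 0.01. Medians of the atrial, Schwann cell and smooth muscle lists were below and those of the cell cycle and glycolysis lists above the 0.01 of all tested genes, with 0 members of these 5 lists passing in edgeR. At an unadjusted p under 0.05 they held 2 (atrial), 5 (Schwann cell), 7 (smooth muscle), 4 (cell cycle) and 3 (glycolysis) members, and DESeq2 called 1, 0, 4, 0 and 2. The clock and interferon lists also had 0 edgeR and 0 DESeq2 calls, with 2 and 5 members at an unadjusted p under 0.05. The shares of the cell cycle and glycolysis lists lay near the 16.6% of all tested genes. The epicardium, adipocyte, cartilage and bone, insulin-like growth factor, Wnt, integrated stress and red blood cell lists also had 0 edgeR calls and are not described.

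**Figure D4:**
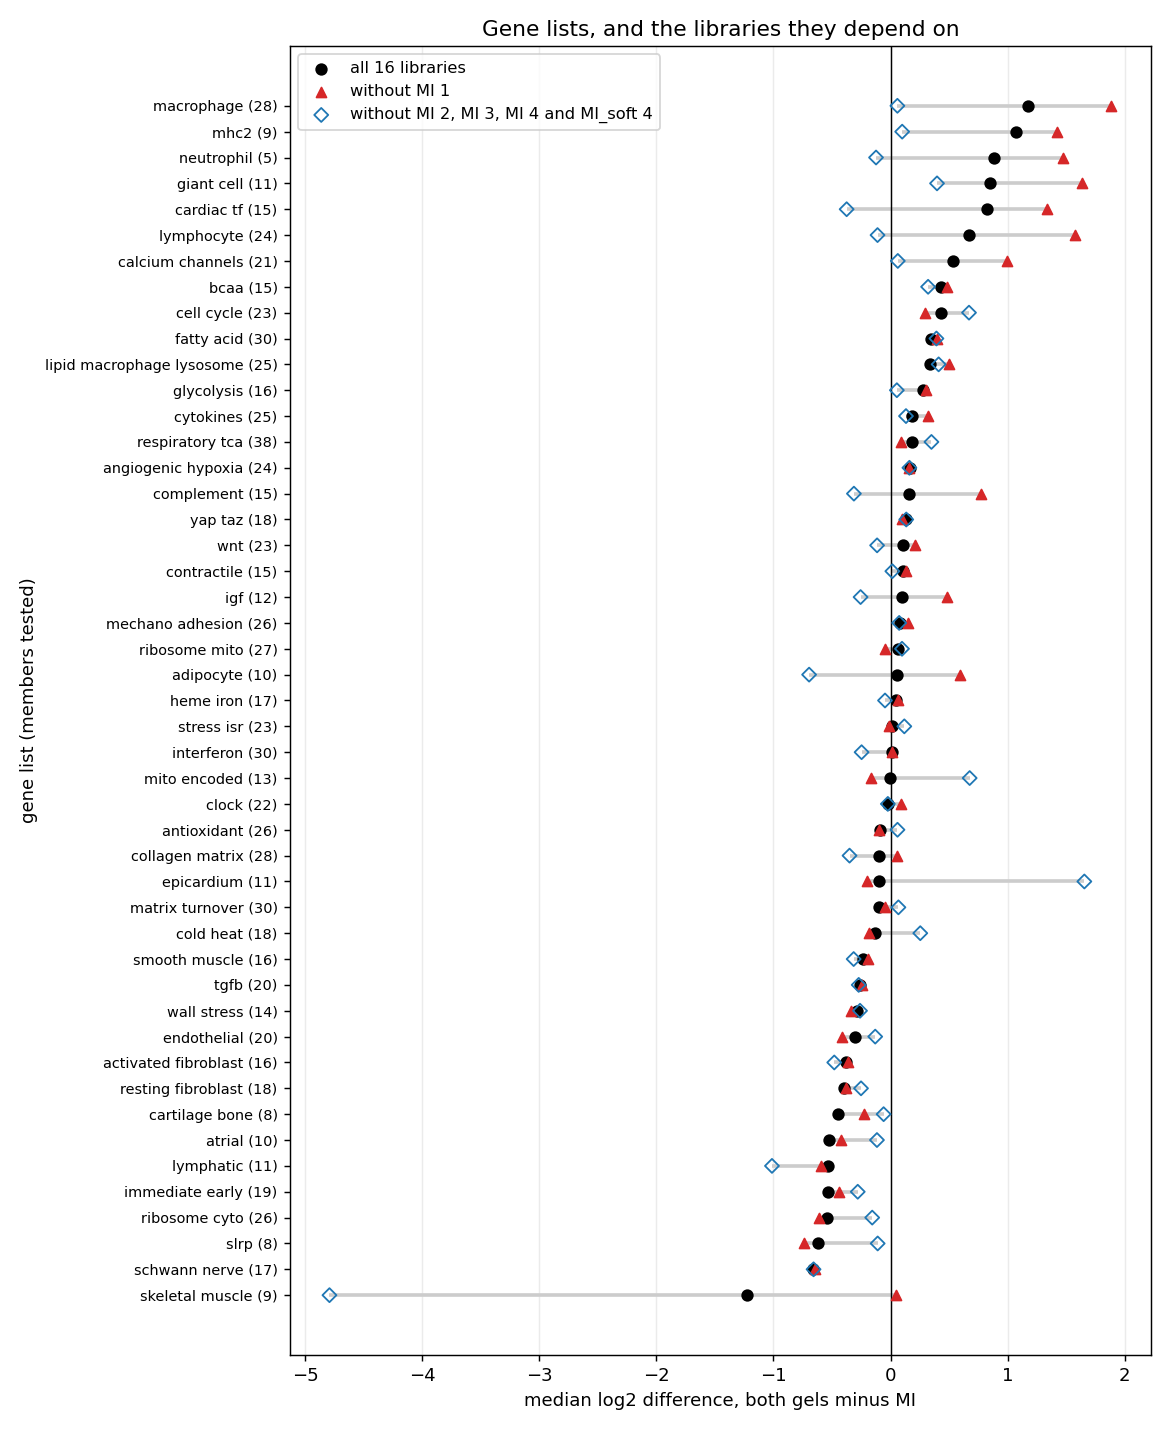
Median log2 difference, both gels minus MI, of each gene list with at least 5 tested members (number tested in parentheses), with all 16 libraries (black circles), without MI 1 (red triangles) and without the low-detection libraries MI 2, MI 3, MI 4 and MI_soft 4 (open diamonds). The macrophage median of 1.18 becomes 1.89 and 0.06, the skeletal muscle median of -1.23 becomes 0.05 and -4.79, and the lymphatic, fatty acid and lysosome medians keep their sign.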

How the data were processed

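Bulk RNA sequencing measured gene expression in 16 libraries, and 12 of them, MI, MI_soft and MI_stiff, entered the comparison. The authors deposited expected counts per gene and TPM for 17085 genes. Per the submitters' processing notes, STAR 2.7.3a, RSEM 1.3.1 and build rn7 were used. For annotation and strandedness, the settings were not given in the sources used here, so overlapping and antisense genes cannot be separated. Values were rounded to whole counts, which altered 0.785% of those deposited. RNA was isolated on columns with DNase digestion, mRNA was purified from it and libraries were sequenced on an Illumina instrument, per the labels' protocols.

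Genes with too few counts were removed with edgeR's filter by expression, which left 11376, and TMM factors scaled the libraries to CPM. edgeR's quasi-likelihood test (edgeR 4.0.16, R 4.3.3, robust, 16 libraries, 1 coefficient per group) gave the mean of the 2 gel groups minus MI, with Benjamini-Hochberg adjustment over all tested genes and a threshold of 0.05. Each SE was derived from the test, as the size of the difference divided by the square root of its F statistic. The 95% intervals between the gels were built from that SE. The common biological coefficient of variation was 0.403. Gene lists were described by counts and medians. The comparison, its members and its lists were chosen with earlier results of these data known.

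Genes were named by a rule: among called genes with a group mean of at least 5 CPM the 12 largest rises and the 12 largest falls, the 10 smallest adjusted p, up to 4 called members of each list, for a list with none its member of smallest p, and called genes that also differed between the gels. Genes with counts identical to another gene's (483 of those tested) were skipped. Other called genes were chosen after their values were seen and are said to lie outside the rule. On counts simulated for both gels against MI with 11201 genes in the test, 39% of 2-fold and 85% of 4-fold changes were recovered, and 4 of 128 calls were false. The simulated libraries were independent draws from a common profile, with changes equal for both gels. They held no library that stood apart as MI 1 did and no low-detection libraries, so these shares may not hold for the real data. Alternatives were RLE size factors, DESeq2 1.42.0, limma-voom (limma 3.58.1), library quality weights, no filter, a stricter filter (1 CPM in 8 libraries), the 12 libraries alone, the gels as 1 group, a replicate block, no low-detection libraries, and each library left out in turn. Sequences came from RefSeq on GRCr8. Of the files' gene names, 15039 matched its current symbols, 857 older symbols and 1189 neither.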

Additional observations from a re-analysis of the deposited data

Results flagged for a closer look

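In 17 of 189 sets of 4 libraries, 1 library stood apart by a gap above the 95% critical value of Dixon's test. The sets were those of the called genes without counts identical to another gene's. For independent normal values chance gives about 1 in 20. Genes of the same library are not independent, so 17 of 189 cannot be read against that rate. MI 1 accounted for 7 of the 17, MI_stiff 2 for 4, MI_soft 4 and MI_stiff 3 for 2 each, and MI_soft 2 and MI_stiff 4 for 1 each.

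In MI 1, Cirbp was low at 30.1 CPM against 51.9 to 54.8 in the other MI libraries, Naca at 223 against 346 to 364, C1qtnf7 at 42.5 against 63.0 to 67.9 and Ephx1 at 34.9 against 66.6 to 75.2. Each of these genes was lower with the gels, so MI 1 was on the side of the gels. Dcstamp in MI 1 was 0.246 CPM, and Cpne6 and Gpr75 were each 0.0615 CPM, with 0 in the other MI libraries. Beside such zeros any count in MI 1 would have been flagged, so the flags of these genes carry no weight.

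MI_stiff 2 was low in macrophage genes. Mmp12 was 146 CPM against 646 to 785 in the other stiff-gel libraries, Il1rn 10.8 against 114 to 142, Lilrb4 4.74 against 24.1 to 29.1, and Lyz2 297 against 1390 to 1850. MI_soft 2 was high in Mmp12, at 265 CPM against 65.7 to 71.1. MI_soft 4 was low in Uchl1, at 3.76 against 6.24 to 6.67 CPM, and in Slc38a1, at 9.36 against 18.2 to 20.3. MI_stiff 3 was low in Map3k7cl, at 7.88 against 13.3 to 13.8 CPM, and high in Nr4a1, at 17.4 against 9.72 to 10.5. MI_stiff 4 was high in Atp5if1, at 106 against 63.0 to 68.3 CPM. The origin of these values was not tested.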

How the results depend on the processing

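Against 70 genes called for both gels, DESeq2 called 497, limma-voom 35 and the fit with library quality weights 302. With the gels as 1 group 36 were called, and with all Sham libraries left out the count was 2. With each library left out in turn the count ran from 1 (without MI 2) to 1663 (without MI 1). The 11 genes that differed between the gels became 278 with DESeq2, 17 with limma-voom, 509 with quality weights, 3 with the 12 libraries and 243 without the low-detection libraries, and 4 to 57 with a library left out. The 140 genes without overlap between the gels and MI became 3847 without the low-detection libraries, where 1 untreated infarct remains, and 137 to 1129 with a library left out. With a replicate block, 24 genes were called for both gels and 3 between the gels. Same-numbered libraries did not deviate together: 3 of 12 pairs had r above 0.1 (range -0.285 to 0.176) and 3 of 12 samples correlated best with their own number, so the numbers were not taken as pairs. RLE factors (63 calls), no filter (57) and a stricter filter (63) stayed within 1.5 times. Without the low-detection libraries the sign turned for Rplp1 and its copy LOC100360522 (0.29), Atp5if1 (0.17), Nfkbia (0.39), ATP8 (1.91), Fabp4 (0.38), Ifit2 (0.0028), Chad (0.0048), Per2 (0.21) and S100a8 (-0.26). That fit rests on MI 1 for the untreated infarct, whose spread is assumed to be that of the other groups, and the cause of the other changes was not tested. Depth limits genes with few counts in MI, such as Cpne6, Gpr75 and Gpr143. In simulation most 2-fold changes were missed (39% recovered), so a gene outside the 70 was not shown to be unchanged.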

Other observations

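Some genes separated the groups fully without passing the test. Atp6v0d2, the osteoclast subunit of the lysosomal proton pump, had means of 0.492 CPM in MI, 5.21 in MI_soft and 11.6 in MI_stiff, with every gel library above every MI library. Mrpl4, a mitochondrial ribosomal protein, had 71.3, 57.7, 49.3 and 47.4 CPM in MI, 88.0, 98.5, 71.4 and 171 in MI_soft and 106, 80.8, 87.1 and 82.9 in MI_stiff, again without overlap (difference 0.79, adjusted p = 0.0946 in edgeR).

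ATP8, encoded in the mitochondrial genome, had the largest negative difference among the named genes that did not pass (-2.43, adjusted p = 0.0797). Its levels were 20.7, 213, 949 and 532 CPM in MI, 21.8, 32.3, 70.6 and 46.9 in MI_soft and 33.8, 203, 148 and 202 in MI_stiff, so MI 1 was below every gel library and MI 2 to 4 were above every one. The 13 tested mitochondrially encoded genes had a median near 0 and 0 edgeR calls, with 2 at an unadjusted p under 0.05 and 1 DESeq2 call. Myl2, the ventricular myosin light chain and usually among the most abundant transcripts of ventricle, had 17.9 ± 5.72 CPM in Sham, 23.3 ± 7.92 in MI and 10.7 ± 5 with the gels (SD, n = 4, 4 and 8). Its row was therefore not read by itself as a measure of ventricular muscle. It did stay in the sarcomere list, where it was among the genes lower at an unadjusted p under 0.05 in edgeR.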
